A study of Homo sapiens with 6 samples.

Results

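The genes described here are 9 members of the DOCK family, DOCK1, DOCK2, DOCK3, DOCK4, DOCK5, DOCK6, DOCK8, DOCK9 and DOCK10, out of 20136 protein-coding genes of the annotation. They were examined for peaks of PAI-1 (plasminogen activator inhibitor-1, a protease inhibitor best known as a secreted protein) in the bladder cancer lines RT112 and UM-UC-3, using chromatin immunoprecipitation and sequencing (ChIP-seq). Of 6 samples, each line had 2 biological ChIP replicates and 1 input, and the labels name no treatment. A list of peaks, the intervals that a peak caller found enriched, was analysed for each of the 4 ChIP libraries, and the inputs were not analysed here. Each group is a single established cell line, so a difference between groups is a difference between these lines. The genes were taken from a list of names, and other family members were not analysed here.

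DOCK proteins are guanine nucleotide exchange factors: they load the small GTPases Rac and Cdc42 with GTP and thereby switch on actin remodelling, cell migration and engulfment. A conserved DHR-2 domain carries the exchange activity, and a DHR-1 domain binds phosphoinositides and brings the protein to the membrane. The DOCK-A genes (DOCK1, DOCK2, DOCK5) and DOCK-B genes (DOCK3, DOCK4) encode Rac activators that work with ELMO adaptors, the DOCK-C genes (DOCK6, DOCK8) encode proteins acting on Rac or Cdc42, and the DOCK-D genes (DOCK9, DOCK10) encode mainly Cdc42 activators. DOCK2 and DOCK8 are known chiefly from blood and immune cells and DOCK3 from neurons, and a bladder cancer line need not express every gene described here. Peak lists hold no expression values.

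The genes spanned 3410.09 kb together, from 63.2 kb for DOCK6 to 709.3 kb for DOCK3. RT112 replicates 1 and 2 had 104 and 69 peaks in them, and UM-UC-3 replicates 1 and 2 had 146 and 159. Per 100 kb of gene this was 3.05 and 2.02 peaks in RT112, a mean of 2.54 ± 0.726 (SD, n = 2), and 4.28 and 4.66 in UM-UC-3, a mean of 4.47 ± 0.270 (SD, n = 2). Both UM-UC-3 libraries therefore lay above both RT112 libraries, with a difference of 1.94 peaks per 100 kb that was larger than the SD of either line (two-sided p = 0.333 by exact permutation, which is the lowest value possible with 2 libraries against 2). The lists themselves differed in size, with 96423 and 60227 peaks in RT112, against 109287 and 114094 in UM-UC-3. Divided by the density of each list over the whole genome, the DOCK genes stood at 0.904 and 0.960 in RT112, against 1.12 and 1.17 in UM-UC-3, a difference of 0.212 (two-sided exact permutation p = 0.333). Part of the difference in raw density thus went with the longer UM-UC-3 lists. The number of reads behind each single list is unknown.

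The difference was not uniform over the genes. Densities of the lines did not overlap in 7 of the 9 genes. UM-UC-3 was the higher line in 5 of them (DOCK2, DOCK3, DOCK4, DOCK8 and DOCK10), where 40.5% of the 6786 protein-coding genes of at least 50 kb had this order. The share was higher among genes of similar length: 48.7% for DOCK2, 57.8% for DOCK3, 50.3% for DOCK4, 46.2% for DOCK8 and 47.7% for DOCK10. The count of 5 of 9 was thus near what genes of this length had. RT112 was the higher line in DOCK1 and DOCK9, 2 of 9, against 9.09% of the genes of at least 50 kb. Among genes of similar length the share with RT112 higher was 6.71% for DOCK1 and 7.04% for DOCK9. Some of these orders depended on the peaks counted. DOCK1 and DOCK9 overlapped between the lines with scores of at least 5, where UM-UC-3 was the higher line in 7 genes and RT112 in 0. DOCK5 and DOCK6 were the genes added, from few peaks. At that limit DOCK5 had 0.428 per 100 kb in each RT112 library, against 0.857 and 1.71 in UM-UC-3. DOCK6 had 0 in each RT112 library, against 1.58 in each UM-UC-3 library. DOCK2 overlapped, with a difference of -0.336, with equal numbers of peaks per library. The share over all genes was not counted under either setting, so these counts cannot be set beside a background. After division by the genome-wide density, UM-UC-3 lay above RT112 in 4 genes (DOCK2, DOCK3, DOCK8 and DOCK10; background 33.2%) and below it in 3 (DOCK1, DOCK5 and DOCK9; background 27.6%). None of these orders can pass a test with 2 libraries a line, since each single gene gives at best a two-sided exact permutation p = 0.333.

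The DOCK-A genes had 3.44 and 2.54 peaks per 100 kb in RT112 but 3.74 and 3.82 in UM-UC-3, and relative to the genome their order was reversed, with 1.02 and 1.21 in RT112 but 0.979 and 0.956 in UM-UC-3. The DOCK-B genes had 2.69 and 1.35 peaks per 100 kb in RT112 but 5.13 and 5.21 in UM-UC-3. The DOCK-C genes had 2.55 and 0.638 in RT112 but 3.51 and 5.10 in UM-UC-3. The DOCK-D genes had 3.15 and 2.98 in RT112 but 4.21 and 5.26 in UM-UC-3, and relative to the genome they overlapped, with 0.935 and 1.41 in RT112 but 1.1 and 1.32 in UM-UC-3. The gap was thus widest in DOCK-B, the subfamily of DOCK3, and in DOCK-A and DOCK-D it joined genes that differed in direction.

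**Figure D1:**
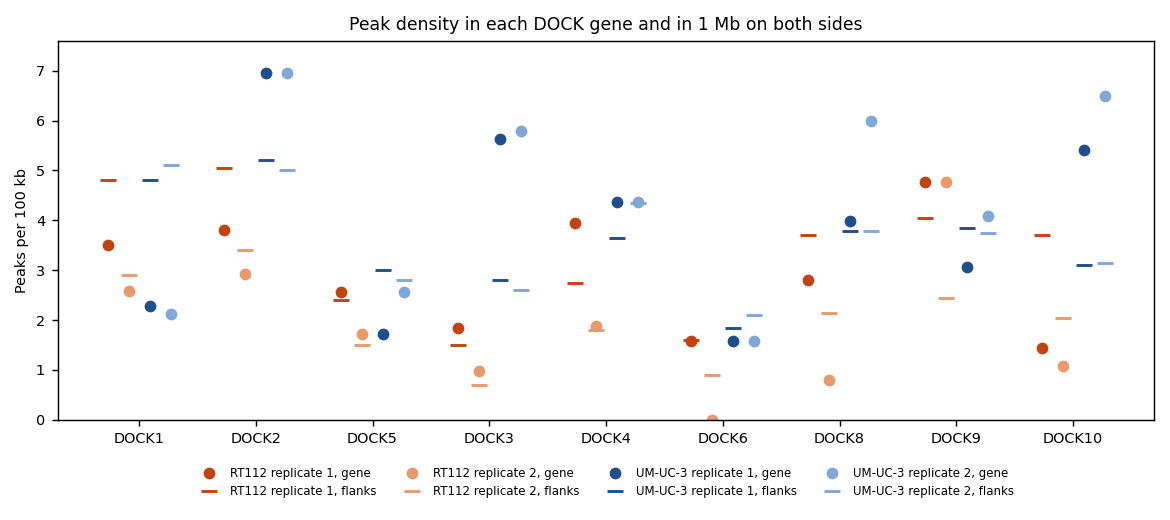
Peaks per 100 kb in each DOCK gene (circles) and in 1 Mb on both sides of it (bars) for the 4 ChIP libraries, in the order of the subfamilies. DOCK2, DOCK8 and DOCK10 lie below their flanks in both RT112 libraries and above them in both UM-UC-3 libraries. DOCK1 lies below its flanks in all 4, with an assembly gap in its intron 1 counted as gene length.

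DOCK1, the founding Rac activator of the family and a partner of ELMO in migration and engulfment, lies on chromosome 10 from 128593978 to 129250781 (hg19, plus strand, 656.8 kb). It had 23 and 17 peaks in the RT112 replicates, against 15 and 14 in the UM-UC-3 replicates, or 3.50, 2.59, 2.28 and 2.13 per 100 kb. Both UM-UC-3 values were below both RT112 values, although the lists of UM-UC-3 were longer. Part of intron 1 is a gap of unknown bases in the assembly: chr10:128619261-128619589 held no stretch of 24 known bases. The densities, flank ratios and percentiles of DOCK1 count this gap as sequence, and values of the gene without it are not given here. The flanking 1 Mb on each side did not share this order: it held 4.80 and 2.90 peaks per 100 kb in RT112, against 4.80 and 5.10 in UM-UC-3, so that the gene stood at 0.730 and 0.893 of its flanks in RT112, against 0.476 and 0.418 in UM-UC-3. Within the gene, peaks of the lines also lay in different stretches. In RT112, 20 of 23 and 15 of 17 peaks lay on the 3′ side of the midpoint. No peak was found in both replicates within the first 462.4 kb, a stretch that includes the gap, where no peak can be called. The 3′ side held 8 of 15 and 5 of 14 peaks of UM-UC-3, and 6 of the 10 regions found in both replicates lay in the second of 4 equal parts of the gene. Of 8 such RT112 regions 7 lay in the last part. Intron 29 (81.6 kb) held 10, 5, 4 and 3 peaks in the 4 libraries.

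DOCK1 also held the clearer of 2 places where a region found in both replicates of RT112 met one found in both replicates of UM-UC-3. It lies in intron 29, 536.9 kb from the start, with scores of 2.90 and 3.19 in RT112, against 7.42 and 5.01 in UM-UC-3. The score was read as the peak caller's −log10 p or q, and none of these is high, but in UM-UC-3 it was the best-placed repeated region of the gene by rank of the score. The peaks had 244 bases in common, which are in capitals in this stretch of chr10:129130781-129131080, plus strand of GRCh37.
DOCK1 intron 29, shared by the lines: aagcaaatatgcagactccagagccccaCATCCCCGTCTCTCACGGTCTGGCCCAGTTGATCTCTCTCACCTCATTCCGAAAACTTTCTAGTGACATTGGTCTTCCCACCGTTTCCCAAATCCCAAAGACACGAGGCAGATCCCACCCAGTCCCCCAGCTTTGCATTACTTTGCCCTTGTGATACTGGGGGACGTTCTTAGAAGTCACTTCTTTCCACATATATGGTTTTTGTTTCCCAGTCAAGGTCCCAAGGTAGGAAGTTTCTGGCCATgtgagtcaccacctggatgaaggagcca
None of the 24-base words of the peaks at this place occurred elsewhere in the assembly.

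DOCK2, the Rac activator of lymphocytes and other blood cells, lies on chromosome 5 from 169064272 to 169510386 (plus strand, 446.1 kb). It had 17 and 13 peaks in RT112, against 31 in each UM-UC-3 library, that is 3.81, 2.91, 6.95 and 6.95 per 100 kb. The UM-UC-3 density was the highest of any DOCK gene. Its flanks held 5.05 and 3.40 peaks per 100 kb in RT112, against 5.20 and 5.0 in UM-UC-3, so the gene lay below its flanks in RT112 (ratios of 0.755 and 0.857) and above them in UM-UC-3 (1.34 and 1.39). Chromosome 5 as a whole had 3.67, 2.29, 5.04 and 5.25 peaks per 100 kb in the same libraries, above the genome-wide 3.37, 2.11, 3.82 and 3.99. The chromosome was thus above the genome in all 4 libraries, by more in UM-UC-3. DOCK2 in turn lay above its chromosome in all 4, by a smaller margin in RT112.

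Of the DOCK2 peaks, 8 regions were repeated in RT112 (found in both replicates of the line) and 18 in UM-UC-3, and none met a region of the other line. Intron 27 (142.2 kb) alone held 7 of the 18. The highest-scoring region in RT112 lay in intron 35 (chr5:169461942-169462307, scores 16.1 and 12.3) and that in UM-UC-3 in intron 22 (chr5:169172951-169173277, scores 11.3 and 16.3). The UM-UC-3 region is shown because it carries a run of 25 purines without a pyrimidine, in capitals, in chr5:169172964-169173263.
DOCK2 intron 22, UM-UC-3: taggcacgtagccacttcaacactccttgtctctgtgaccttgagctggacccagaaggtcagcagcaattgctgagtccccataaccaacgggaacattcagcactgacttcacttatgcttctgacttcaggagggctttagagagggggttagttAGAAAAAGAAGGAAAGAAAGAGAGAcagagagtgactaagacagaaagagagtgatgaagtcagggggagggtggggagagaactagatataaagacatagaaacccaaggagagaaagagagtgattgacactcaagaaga
Such runs were not typical: at least 20 purines or pyrimidines in a row were present in 1 of 36 repeated RT112 regions of the DOCK genes and in 5 of 107 in UM-UC-3 (4.67%), against 6.52% of all repeated UM-UC-3 regions.

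Peaks on DOCK2 exons show how close to each other the lines could come without overlapping. RT112 had a peak on the 3′ end of exon 38 in both replicates (scores 10.1 and 9.32), covering the last 28 coding bases and the start of the next intron. UM-UC-3 replicate 1 had a peak on 89 coding bases of the same exon (score 3.88), and it ended 3 bases before the RT112 peak began. In UM-UC-3 both replicates had instead a peak over all 73 bases of exon 16 (scores 9.65 and 8.05), where RT112 had none. Both are printed with coding bases in capitals, on the plus strand, from chr5:169469109-169469382 and chr5:169138887-169139103.
DOCK2 exon 38, RT112: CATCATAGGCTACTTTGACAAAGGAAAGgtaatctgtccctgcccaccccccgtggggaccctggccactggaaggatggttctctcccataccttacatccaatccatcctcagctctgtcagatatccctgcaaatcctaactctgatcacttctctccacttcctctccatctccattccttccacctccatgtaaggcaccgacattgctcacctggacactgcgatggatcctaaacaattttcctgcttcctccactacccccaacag
DOCK2 exon 16, UM-UC-3: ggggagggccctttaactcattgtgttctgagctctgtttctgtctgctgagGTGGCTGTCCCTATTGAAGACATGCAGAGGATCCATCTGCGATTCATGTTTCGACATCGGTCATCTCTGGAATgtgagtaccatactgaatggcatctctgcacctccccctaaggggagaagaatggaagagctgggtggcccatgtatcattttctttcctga

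A primer pair of the study for ChIP-PCR lies at DOCK2. Each primer matched GRCh37 once, and together they span 66 bp (chr5:169063948-169064013), centred 0.298 kb upstream of the start of the canonical transcript. The product is given with the primer bases in capitals.
DOCK2 ChIP-PCR product: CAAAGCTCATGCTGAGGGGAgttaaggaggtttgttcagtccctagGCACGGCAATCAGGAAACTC
No peak of any library covered it. The nearest peak was 5.72 kb away in RT112 replicate 1, 18.1 kb in RT112 replicate 2 and 1.33 kb in each UM-UC-3 replicate, where it lay in the first intron (chr5:169065342-169065633 in replicate 1) with scores of 3.88 and 3.85. The UM-UC-3 peak was the closer one, with scores at the median of its lists (3.88 and 3.85).

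DOCK5, a Rac activator related to DOCK1 and known from osteoclasts, lies on chromosome 8 from 25042204 to 25275598 (plus strand, 233.4 kb). It had 6, 4, 4 and 6 peaks, or 2.57, 1.71, 1.71 and 2.57 per 100 kb, in RT112 replicates 1 and 2 and UM-UC-3 replicates 1 and 2. The lines overlapped entirely in density. The places differed: 4 regions were repeated in RT112, all between 73.0 and 123.3 kb from the start, and 3 in UM-UC-3, at 11.7, 49.3 and 204.1 kb. The best-ranked region was in intron 2 in RT112 (scores 4.94 and 5.29) but in intron 1 in UM-UC-3 (6.61 and 5.16). No sequence is shown for this gene.

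DOCK3, a Rac activator first described in neurons and the longest gene here, lies on chromosome 3 from 50712358 to 51421629 (plus strand, 709.3 kb). It had 13 and 7 peaks in the RT112 replicates, against 40 and 41 in the UM-UC-3 replicates, or 1.83, 0.987, 5.64 and 5.78 per 100 kb. The mean was 4.05-fold higher in UM-UC-3 (5.71 ± 0.0997 against 1.41 ± 0.598, SD, n = 2 each), and the gap of 4.30 was several times the SD between replicates. The flanks moved in the same direction, with 1.5 and 0.70 peaks per 100 kb in RT112, against 2.80 and 2.6 in UM-UC-3, a 2.45-fold difference of the means. The gene therefore stood at 1.22 and 1.41 of its flanks in RT112, against 2.01 and 2.22 in UM-UC-3. Gene and flanks were thus both richer in UM-UC-3 peaks, the gene more so.

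In UM-UC-3, 30 regions of DOCK3 were found in both replicates, with a median spacing of 8.58 kb, and 12 of them lay in the first of 4 equal parts of the gene. Introns 1 and 2 held 6 each and intron 5 held 5. RT112 had 4, of which none met a UM-UC-3 region, and its longest stretch without one ran from 161.8 to 520.5 kb. The best-ranked RT112 region lay in intron 49 (scores 6.23 and 4.04). The highest score of all DOCK genes was in DOCK3 intron 2 of UM-UC-3, 35.7 in replicate 1 and 37.6 in replicate 2, at place 115 among 81760 repeated regions of that line. RT112 had no peak there in either replicate.

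This strongest region is not unique sequence. Of the 24-base words in the peak, 67.3% in replicate 1 and 67.2% in replicate 2 occurred elsewhere in the assembly, with a median of 10 copies, a measure chosen after the peak had been seen. The part of such sequence in the score was not tested. The next regions of DOCK3 by score, in intron 2 (14.6 and 19.9) and intron 4 (14.6 and 11.2), followed it.

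DOCK4, a Rac activator of the same subfamily that also acts on adherens junctions, lies on chromosome 7 from 111366166 to 111846462 (minus strand, 480.3 kb). It had 19 and 9 peaks in RT112, against 21 in each UM-UC-3 library, or 3.96, 1.87, 4.37 and 4.37 per 100 kb. UM-UC-3 was higher in raw density, by a small margin over RT112 replicate 1. Relative to the genome the lines overlapped, with 1.17 and 0.889 in RT112, against 1.14 and 1.1 in UM-UC-3. RT112 had 5 repeated regions and UM-UC-3 had 17, none in common. The best-ranked region lay in intron 1 in RT112 (scores 13.0 and 7.90) but in intron 26 in UM-UC-3 (12.9 and 11.2). The closest pair lay in intron 1, 65.1 kb into the gene, where an RT112 region and a UM-UC-3 region were 0.225 kb apart.

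DOCK6, which acts on Rac and Cdc42 in endothelial and neuronal cells, lies on chromosome 19 from 11309971 to 11373200 (minus strand) and is by far the shortest gene here. It had 1, 0, 1 and 1 peaks in the 4 libraries, and the UM-UC-3 peaks, in an intron in replicate 1 and on exon 43 in replicate 2, did not overlap. DOCK6 was thus the single gene without a repeated region in either line, and with so few peaks a difference between the lines was not detectable.

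DOCK8, a Cdc42 activator whose loss causes an immunodeficiency, lies on chromosome 9 from 214854 to 465259 (plus strand, 250.4 kb), close to the end of the chromosome. It had 7 and 2 peaks in RT112, against 10 and 15 in UM-UC-3, or 2.80, 0.799, 3.99 and 5.99 per 100 kb. The libraries of a line differed strongly from each other, with an SD of 1.41 in each line, and the difference of the means was 3.19. The flanks, cut to 1214.85 kb by the chromosome end, held 3.70 and 2.14 peaks per 100 kb in RT112, against 3.79 in each UM-UC-3 library, so the gene lay at 0.755 and 0.373 of them in RT112, against 1.05 and 1.58 in UM-UC-3. All 10 peaks of UM-UC-3 replicate 1 were found again in replicate 2, whereas 1 of 7 peaks of RT112 replicate 1 was.

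That lone repeated RT112 region of DOCK8 was the other place shared by the lines. It lies in intron 14 with scores of 3.8 and 2.97 in RT112, against 2.64 and 2.63 in UM-UC-3, all in the lower part of their lists (percentiles of 43.1, 20.1, 15.8 and 15.6). The peaks had 105 bases in common. The highest-scoring UM-UC-3 region of the gene lay elsewhere in the same intron (chr9:365382-365754, scores 25.7 and 21.8, place 698 of 81760), and RT112 had no peak there. It is shown as the strongest peak of the gene, with its longest pyrimidine run of 15 bases in capitals, in chr9:365418-365717.
DOCK8 intron 14, UM-UC-3: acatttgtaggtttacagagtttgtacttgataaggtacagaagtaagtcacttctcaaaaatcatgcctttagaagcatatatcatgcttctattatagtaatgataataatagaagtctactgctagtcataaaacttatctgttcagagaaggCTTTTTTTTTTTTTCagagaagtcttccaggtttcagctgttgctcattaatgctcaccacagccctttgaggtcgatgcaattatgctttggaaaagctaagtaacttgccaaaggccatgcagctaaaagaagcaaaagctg
The intron thus held both the strongest UM-UC-3 peak of the gene and the site shared with RT112, at different positions.

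DOCK9, a Cdc42 activator also called zizimin1, lies on chromosome 13 from 99445683 to 99738879 (minus strand, 293.2 kb). It had 14 peaks in each RT112 library and 9 and 12 in UM-UC-3, or 4.77, 4.77, 3.07 and 4.09 per 100 kb. This was the highest RT112 density of the 9 genes, and both RT112 values lay above both UM-UC-3 values, as in DOCK1. Relative to the genome the values were 1.42 and 2.27 in RT112, against 0.803 and 1.03 in UM-UC-3. The flanks held 4.05, 2.45, 3.85 and 3.75 peaks per 100 kb, with no such order. RT112 had 5 repeated regions and UM-UC-3 had 7, none shared, and the nearest pair lay 2.06 kb apart. The best-ranked RT112 region was in intron 32 (scores 8.09 and 9.14). That of UM-UC-3 was in intron 2 (chr13:99604611-99605025, scores 23.2 and 14.5), where 41.3 and 44.3% of the 24-base words occurred elsewhere.

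DOCK10, which acts on Cdc42 and Rac and is known from lymphocytes, lies on chromosome 2 from 225629807 to 225907185 (minus strand, 277.4 kb). It had 4 and 3 peaks in RT112, against 15 and 18 in UM-UC-3, or 1.44, 1.08, 5.41 and 6.49 per 100 kb. The means of 1.26 ± 0.255 and 5.95 ± 0.765 (SD, n = 2 each) differed by 4.69, or 4.71-fold, the largest difference among the 9 genes by either measure when all peaks were counted. With equal numbers of peaks per library the difference was 1.80, below the 1.83 of DOCK3 and smaller in size than the -2.22 of DOCK9. Unlike DOCK3, the flanks did not follow: they held 3.70 and 2.05 peaks per 100 kb in RT112, against 3.10 and 3.15 in UM-UC-3. The gene was at 0.390 and 0.528 of its flanks in RT112, against 1.74 and 2.06 in UM-UC-3. Of 12 repeated UM-UC-3 regions 7 lay in intron 1, which makes up 39.9% of the transcript, and the lone repeated RT112 region (scores 2.76 and 2.97) lay in the same intron, 2.42 kb from the nearest of them.

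The strongest DOCK10 region sat on an exon. In UM-UC-3 its peaks covered all 176 bases of exon 32 (chr2:225672619-225672949, scores 16.4 and 18.1), with no RT112 peak there and no word of it elsewhere in the assembly. Its first 300 bases are shown on the plus strand of GRCh37, which is the strand opposite to the gene, with the coding bases in capitals.
DOCK10 exon 32, UM-UC-3: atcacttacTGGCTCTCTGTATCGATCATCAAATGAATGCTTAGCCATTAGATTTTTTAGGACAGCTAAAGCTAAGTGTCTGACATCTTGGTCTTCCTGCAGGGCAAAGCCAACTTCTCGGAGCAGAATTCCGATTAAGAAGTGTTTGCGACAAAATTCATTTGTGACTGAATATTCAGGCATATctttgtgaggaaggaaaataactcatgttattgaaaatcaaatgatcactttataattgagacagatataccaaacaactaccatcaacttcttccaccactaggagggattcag
Exons took up 2.1% of the transcripts of the 9 genes, and 4, 2, 8 and 8 of their peaks overlapped an exon by any base in RT112 replicates 1 and 2 and UM-UC-3 replicates 1 and 2. A share of bases is not the share of peaks that would touch an exon, since any base in common counts. No enrichment on exons can be read from these values.

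**Figure D2:**
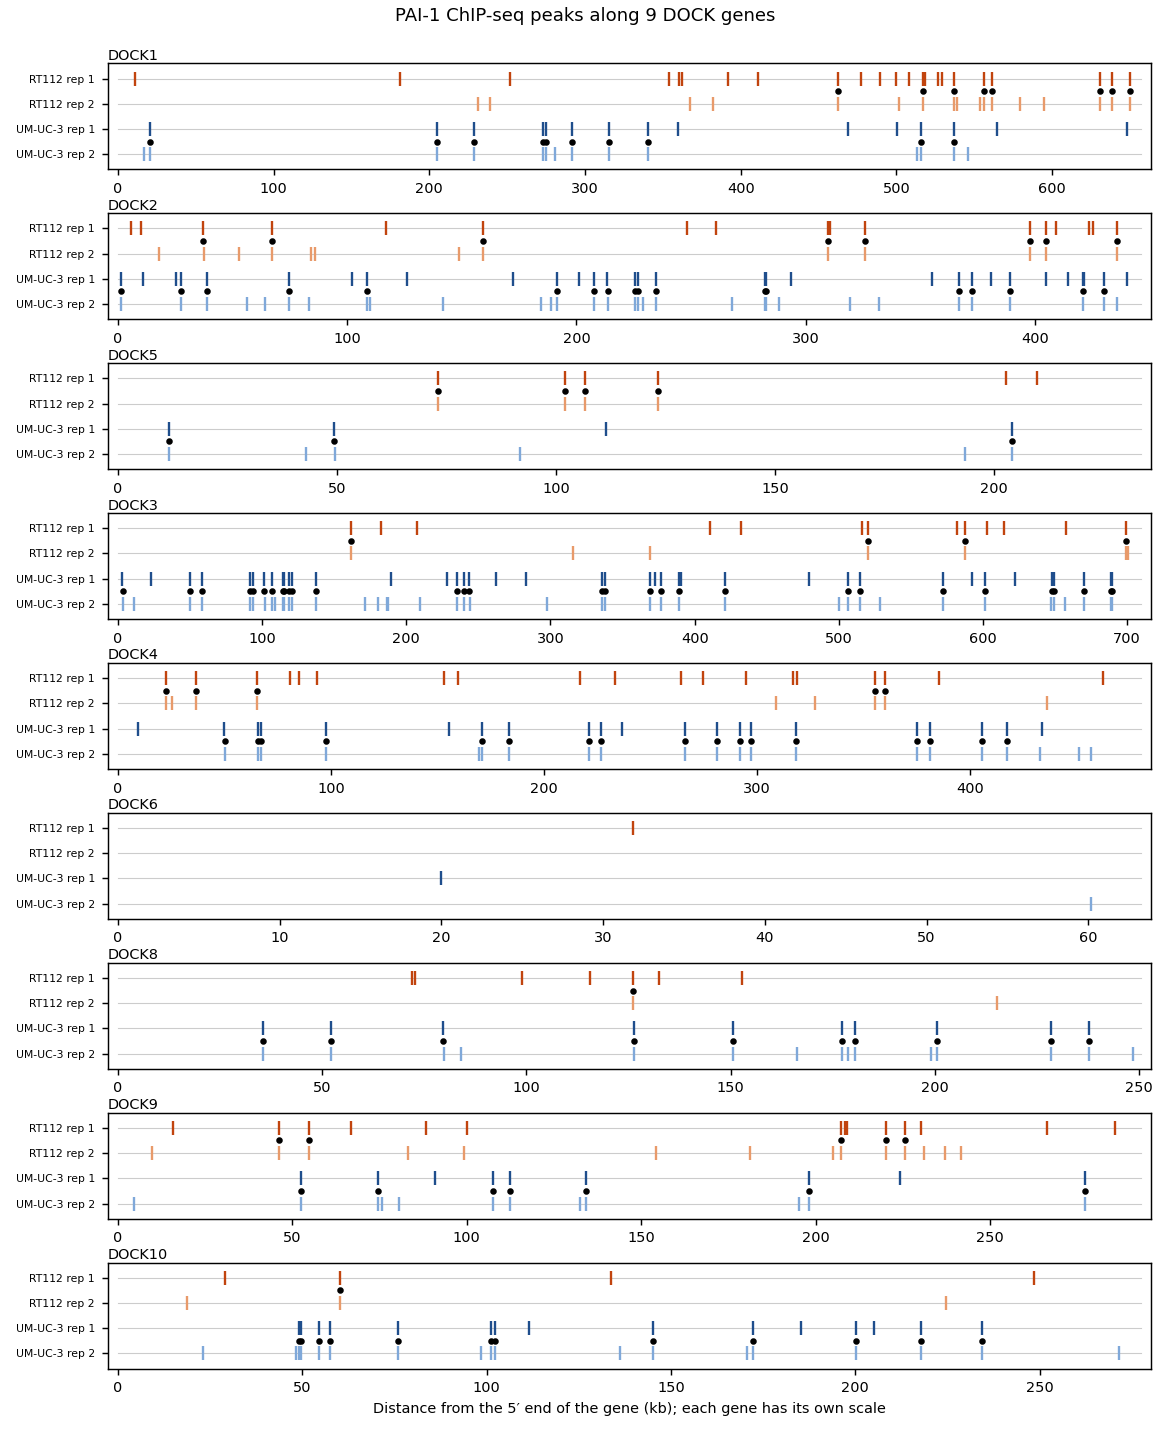
Positions of all peaks in the 9 DOCK genes by library (coloured ticks), in kb from the 5′ end of each gene, with black dots for regions found in both replicates of a line. RT112 and UM-UC-3 dots line up at a single site in DOCK1 and in DOCK8, the RT112 peaks of DOCK1 gather on the right, and DOCK6 has no dots.

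To see whether these densities are unusual for genes of this size, each DOCK gene was set beside the protein-coding genes of 0.7 to 1.4 times its length, 258 genes for DOCK3 and up to 3319 for DOCK6. The percentile of DOCK3 among such genes was 10.9 and 10.5 in the RT112 libraries but 88.4 and 88.0 in the UM-UC-3 libraries. For DOCK10 it was 11 and 19.9 in RT112 but 81.7 and 89.8 in UM-UC-3. For DOCK2 it was 56.1 and 72.3 in RT112 but 95.4 and 93.3 in UM-UC-3. These 3 genes were thus among the denser long genes of UM-UC-3, and DOCK3 and DOCK10 among the sparser of RT112. DOCK1, DOCK5 and DOCK9 ran the other way. The percentile of DOCK5 was 34.7 and 41.9 in RT112 but 9.90 and 22 in UM-UC-3. The percentile of DOCK1 was 51.0 and 68.1 in RT112 but 9.73 and 6.04 in UM-UC-3, and that of DOCK9 was 78.6 and 95.7 in RT112 but 33.7 and 53.2 in UM-UC-3. The DOCK1 percentiles count the assembly gap in its intron 1 as gene length, which lowers its densities. DOCK4 was near the middle in all libraries, at 63.2 or less. For the difference between the lines, the percentile was 97.7 for DOCK3, 97.2 for DOCK10, 92.4 for DOCK2 and 87.4 for DOCK8, and at the other end 7.77 for DOCK9 and 7.05 for DOCK1. Percentiles are given as a description, without a test.

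**Figure D3:**
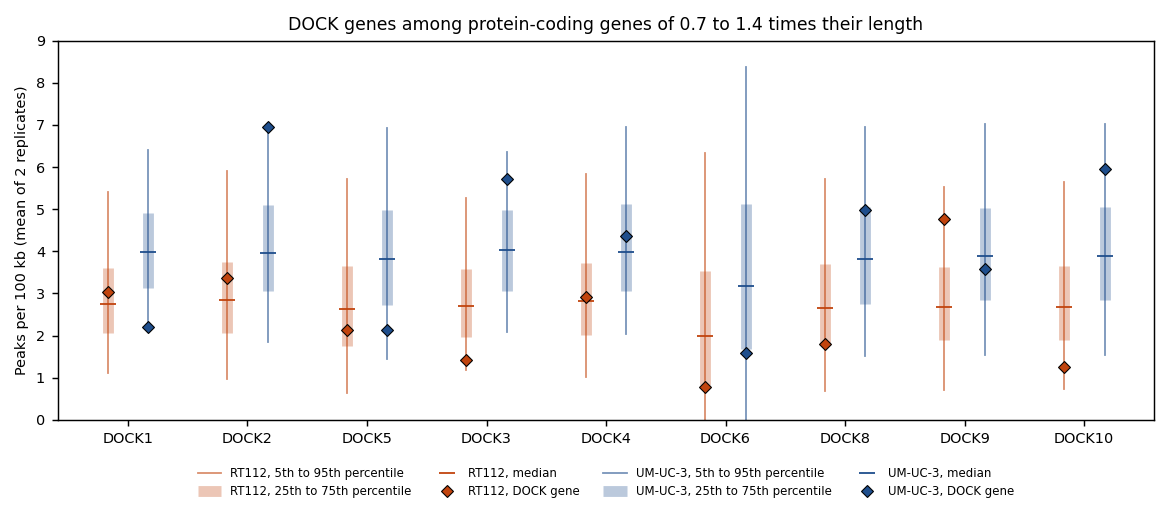
Mean peaks per 100 kb of each DOCK gene (diamonds) in RT112 (red-orange) and UM-UC-3 (blue), against protein-coding genes of 0.7 to 1.4 times its length (short bar, median; thick line, 25th to 75th percentile; thin line, 5th to 95th). In UM-UC-3, DOCK2, DOCK3 and DOCK10 lie above the thick line and DOCK1, DOCK5 and DOCK6 below it. The DOCK1 values count the assembly gap in its intron 1 as gene length. In RT112, DOCK9 lies above it and DOCK3, DOCK6, DOCK8 and DOCK10 below it.

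Peaks found in both replicates of a line are the better supported ones. In the DOCK genes, 34.6% of the peaks of RT112 replicate 1 and 52.2% of those of replicate 2 overlapped a peak of the other replicate by at least 1 bp, a mean of 43.4 ± 12.4% (SD, n = 2). For UM-UC-3 these values were 73.3 and 67.3%, with a mean of 70.3 ± 4.24% (SD, n = 2). Both means were close to those of all peaks of the line, 49.8 and 73.3%. The overlaps made 36 regions in RT112, against 107 in UM-UC-3. At least 1 was present in 8 of the 9 genes in RT112, where 67.3% of protein-coding genes of at least 50 kb had one, and in 8 of 9 in UM-UC-3, where 88.1% had one; DOCK6 was the exception in both. Of genes similar in length to DOCK3, 98.8% had one in RT112, so presence alone says little here.

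Few positions were shared by the lines. Of these regions, 2 of the 36 RT112 regions (5.56%) and 2 of the 107 UM-UC-3 regions (1.87%), those in DOCK1 and DOCK8, met a repeated region of the other line, and the same 2 were the only ones that overlapped any peak of the other line. Genome-wide the shares were 5.86% and 2.64%. Neither site counted as shared with a score of at least 5, with equal numbers of peaks per library or with a reciprocal overlap of 50%. By gene this was 2 of 9, against 10.2% of protein-coding genes of at least 50 kb but 32.6% of genes similar in length to DOCK1 and 16.5% of those similar to DOCK8. The median distance from an RT112 region to the nearest repeated UM-UC-3 region on the chromosome, inside the gene or not, was 15.0 kb. Replicates, in contrast, often gave the same interval: both ends lay within 1 bp in 50% of 36 overlapping pairs in RT112, against 70.1% of 107 in UM-UC-3.

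**Figure D4:**
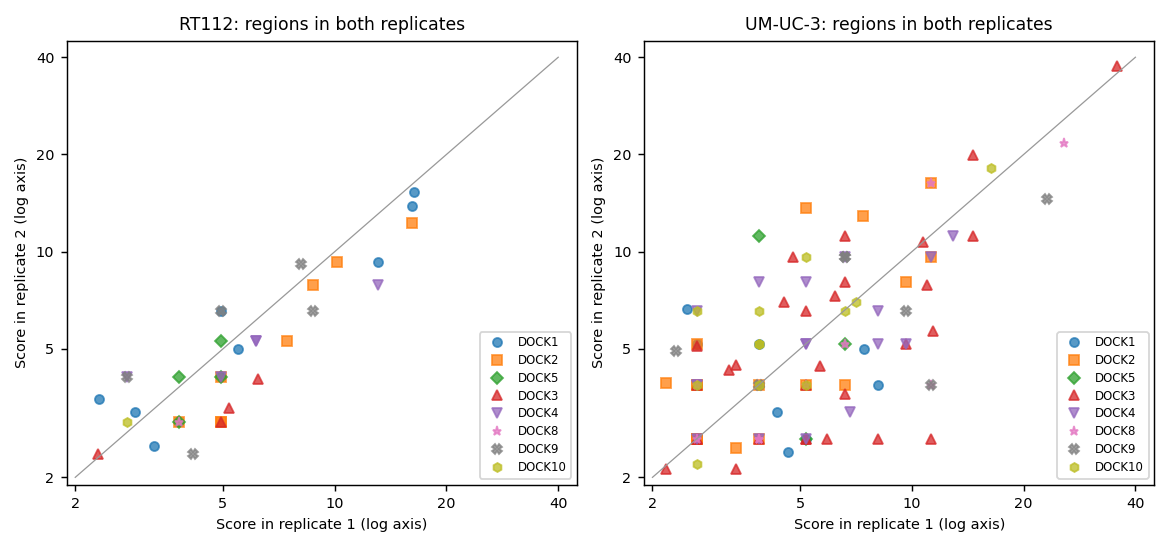
Score of each region found in both replicates, replicate 1 against replicate 2 on log axes, for 36 RT112 and 107 UM-UC-3 regions (several coincide, since many peaks carry equal scores). The line marks equal scores; DOCK3 reaches 35.7 and 37.6 in UM-UC-3, and no RT112 region exceeds 16.3 in replicate 1.

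Scores were modest in most of these regions. Both replicates reached at least 10 in 3 of the 36 RT112 regions (2 in DOCK1 and 1 in DOCK2) and in 10 of the 107 UM-UC-3 regions. The median score of all peaks in the DOCK genes was 3.8 and 4.09 in RT112, against 4.57 and 3.85 in UM-UC-3, next to 3.8, 4.09, 3.88 and 3.85 over all peaks of those libraries. The DOCK genes as a group therefore held peaks with scores near those of the whole lists, except for the higher median of UM-UC-3 replicate 1. In DOCK1 the RT112 region in intron 50 (chr10:129243584-129243863) had scores of 16.3 and 15.3, the best-ranked RT112 region of the 9 genes.

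Nearly all peaks were intronic: 94, 62, 134 and 145 of the 104, 69, 146 and 159 peaks lay in introns of the canonical transcript. Exons take up 2.1% of these transcripts, so nearly all positions in them are intronic to begin with. First introns make up 22.9% of the transcripts, with the assembly gap in DOCK1 intron 1 counted. They held 12.5 and 8.70% of the RT112 peaks and 20.5 and 20.8% of the UM-UC-3 peaks. Few peaks lay near transcription start sites. No RT112 peak had its midpoint within 3 kb of the start of a canonical transcript. UM-UC-3 had such a peak at DOCK2, beginning 1.06 kb into the gene, and at DOCK9, beginning 0.950 kb upstream of the start (chr13:99631268-99631493 in replicate 1, scores 3.88 and 3.85), in both replicates each. DOCK3 came next in UM-UC-3, with a peak that began 3.04 kb into the gene in both replicates (scores 10.7 and 10.7).

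Other genes inside the DOCK genes took a minor part of the peaks. INSYN2A, a gene of inhibitory synapses inside DOCK1, held 4, 2, 2 and 1 of the DOCK1 peaks, and INSYN2B, a related gene inside DOCK2, held 5, 2, 6 and 10 of the DOCK2 peaks. A peak there lies in both genes and cannot be assigned to either.

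The number of peaks counted changed the size of the difference more than any other setting tried. With the 60227 highest-scoring peaks of each library, the densities were 1.91 and 2.02 per 100 kb in RT112, against 2.32 and 2.35 in UM-UC-3, and the difference fell from 1.94 to 0.367. With peaks of a score of at least 5 it was 1.23. DOCK2 was the gene most affected. With equal numbers it had 3.36 and 2.91 peaks per 100 kb in RT112, against 2.91 and 2.69 in UM-UC-3, a difference of -0.336 against 3.59 with all peaks, and its libraries no longer stood apart by line. DOCK3 (1.27, 0.987, 3.24 and 2.68), DOCK10 (0.721, 1.08, 2.16 and 3.24) and DOCK8 (0.799, 0.799, 2.00 and 2.40) had UM-UC-3 above RT112 with equal numbers too, as did DOCK4 (2.08, 1.87, 2.50 and 2.71), and DOCK9 (3.75, 4.77, 2.05 and 2.05) and DOCK1 (1.98, 2.59, 1.67 and 1.52) still had RT112 above. DOCK6 (0, 0, 1.58 and 1.58) also had UM-UC-3 above with equal numbers, from very few peaks. With a score of at least 5, DOCK1 and DOCK9 overlapped between the lines.

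**Figure D5:**
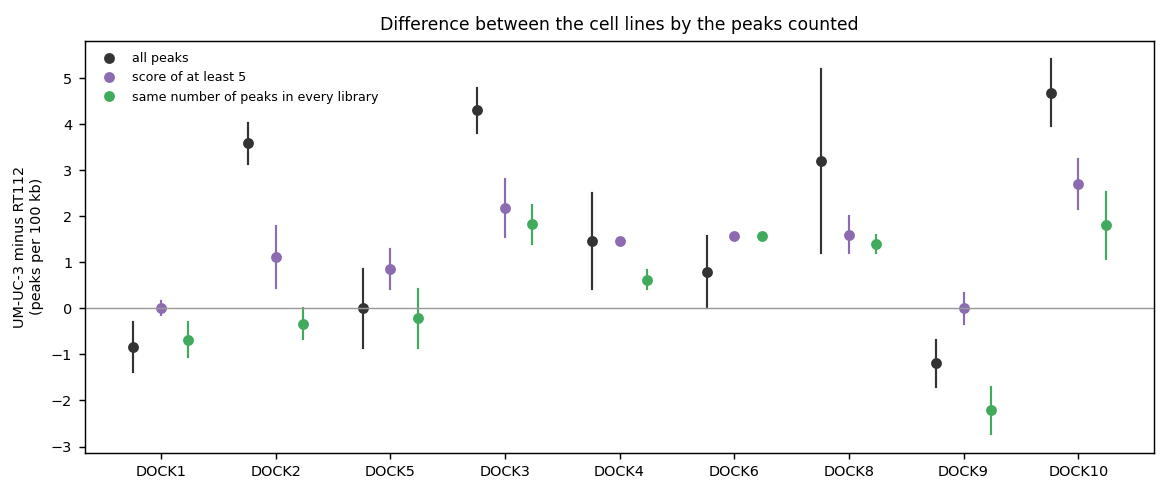
Difference in peaks per 100 kb between UM-UC-3 and RT112 for each DOCK gene with all peaks, with scores of at least 5 and with equal numbers of peaks per library (circles, difference of means; lines, from the smallest to the largest difference between any UM-UC-3 and any RT112 library). DOCK3, DOCK4, DOCK8 and DOCK10 stay above 0 in all settings, and DOCK2 does not.

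Sequence present in several copies made up a larger share of the UM-UC-3 peaks. More than 50% of the 24-base words occurred elsewhere in 9.62 and 10.1% of the RT112 peaks of the DOCK genes and in 19.9 and 21.4% of the UM-UC-3 peaks. Windows of the same width 5 kb to either side had 13.0 and 10.9% around the RT112 peaks and 17.2 and 17.4% around the UM-UC-3 peaks. Without these peaks the difference in density between the lines was 1.26 per 100 kb instead of 1.94, and the shared regions in DOCK1 and DOCK8 were not affected. The median GC content of the repeated regions was 43.8% in RT112, against 41.5% in UM-UC-3, next to 42.2 and 41.9% in windows 5 kb away.

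Other genes of the same pathway were counted in the same way. The 18 Dbl-family exchange factors have a catalytic domain unrelated to that of DOCK proteins, and some, but not all, act on Rac or Cdc42. They had 3.65 and 2.30 peaks per 100 kb in RT112, against 4.66 and 5.19 in UM-UC-3. UM-UC-3 was above RT112 in 11 of 18 genes and below it in 1, where 40.5 and 9.09% of protein-coding genes of at least 50 kb had these orders. Shares among genes of similar length are not given here for the genes of these lists. KALRN, TRIO and VAV3 had the most repeated regions, with 12 and 43, 9 and 21, and 5 and 22 in RT112 and UM-UC-3. The 13 GTPase-activating proteins, which switch Rac and Cdc42 off, had 3.45, 2.00, 3.40 and 3.91 peaks per 100 kb, with UM-UC-3 above in 4 and below in 1 of 13, so that the share above was under the 40.5% of those genes. CHN2 led them with 10 repeated regions in RT112, against 16 in UM-UC-3.

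The 10 DOCK partners and adaptors had 3.05, 2.12, 3.56 and 3.56 peaks per 100 kb, with UM-UC-3 above in 2 and below in 1 of the 5 genes of at least 50 kb, and ELMO1, the partner of DOCK1 and DOCK2, had 8 repeated regions in RT112, against 15 in UM-UC-3. The 17 Rac and Cdc42 GTPases and effectors had 2.26, 1.70, 3.83 and 4.02, with UM-UC-3 above in 8 and below in 0 of the 12 genes of at least 50 kb, and PAK3, a kinase activated by these GTPases, led them with 4 repeated regions in RT112, against 8 in UM-UC-3. Of all protein-coding genes of at least 50 kb, 40.5% had UM-UC-3 above and 9.09% had it below. The DOCK genes, at 3.05, 2.02, 4.28 and 4.66, were within the range of these lists in every library. Among genes of at least 50 kb, of which 10.2% held a region shared by the lines, this was so for 2 of 9 DOCK genes, 3 of 18 Dbl-family genes, 2 of 13 GTPase-activating proteins, 2 of 5 partners and 0 of 12 GTPases and effectors. These counts are too small to set the lists apart.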

How the data were processed

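PAI-1 ChIP-seq was described for RT112 and UM-UC-3, with 2 ChIP libraries and 1 input per line grouped by the labels; the inputs were not analysed here. Following the study's methods and the submitters' processing notes, the authors aligned reads to hg19 using Bowtie 1.1.1 with default settings, took out duplicates by Picard and called peaks using MACS2 2.1.0.20140616. FastQC and Trimmomatic are also listed. The threshold of these lists, the control, and whether replicates were pooled for calling are not given in the sources used here; figure legends of the study name a false discovery limit for bound probe sets, and its relation to the lists is not given. The score column deposited by the authors was read as −log10 of a p or q, without a statement which. The methods state only an average of reads over samples, so the depth of any single library is unknown and no counting interval was computed.

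Intervals with equal start and end were counted once, with the higher score. Peaks were assigned to a gene by overlap, using GENCODE 44 on GRCh37, with coordinates counted from 1. A repeated region is the union of peaks of both replicates of a line that overlap by at least 1 bp, and a shared region is one that meets a repeated region of the other line. Densities were set beside 1 Mb on each side, beside the whole genome, and beside protein-coding genes of 0.7 to 1.4 times the length. Lines were compared by two-sided exact permutation over libraries (2 against 2, smallest p = 0.333). All 9 genes are named, with the best-ranked repeated region per gene and line, every shared region, and up to 3 genes per pathway list. Members and lists were chosen with earlier results of these data known; peaks on exons and at start sites and the further DOCK3 regions were picked after their values had been seen. Python 3.11.15, numpy 2.4.6, pysam 0.24.0, samtools 1.23.1 and matplotlib 3.10.9 were used, and the counting steps were tested on simulated data. Alternatives varied the score limit, the number of peaks, the overlap, the gene span, the flanks, the length range, repeated words and the libraries used. The sequences of some regions are not reported here.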

Additional observations from a re-analysis of the deposited data

How the results depend on the processing

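No comparison between the lines over all 9 genes changed direction, but its size did. The density difference was 0.367 with equal numbers of peaks per library and 1.23 with scores of at least 5, instead of 1.94. The relative difference was 0.174 and 0.388 instead of 0.212. Of the single genes DOCK2 changed direction (-0.336 with equal numbers), DOCK10 fell to 1.80 and DOCK3 to 1.83 in that setting, and DOCK1 and DOCK9 had a difference of 0 with scores of at least 5. At that limit UM-UC-3 lay above RT112 in 7 genes instead of 5, with DOCK5 and DOCK6 added from few peaks, and below it in 0 instead of 2. The share of all genes with these orders was not counted for any alternative here. With scores of at least 5, 55.5% of UM-UC-3 peaks were repeated instead of 70.3%, and the RT112 density stood at 0.898 of the flanks instead of 0.979. The repeated share of UM-UC-3 was 55.3% with equal numbers and 65.7% with a reciprocal overlap of 50%. Under these 3 settings (scores of at least 5, equal numbers, reciprocal overlap) 0 regions were shared by the lines, which is 0% of either list; the cause of each move was not tested beyond the fewer peaks or stricter overlap that each setting has by construction. Leaving out 1 library at a time gave density differences of 1.42 to 2.45, relative differences of 0.184 to 0.24, 5 to 6 genes with UM-UC-3 above, 2 with RT112 above, and gene to flank ratios of 0.934 to 1.02 in RT112 and 1.21 to 1.29 in UM-UC-3. Nothing in the labels pairs libraries of equal number (correlation of deviations over the genes 0.0364); with a replicate block the density difference was 1.94 (two-sided exact paired permutation p = 0.5, the smallest possible) and the relative difference 0.212 (exact paired permutation p = 0.5). Leaving out peaks of repeated words, an alternative chosen after seeing the data, gave 1.26 for the density difference. Flanks of 500 kb gave ratios of 0.941 and 1.26, and a narrower length range moved no percentile by more than 2.39 points. With 2 libraries per line and no read counts, smaller differences could not be resolved.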
